A study of Caenorhabditis elegans with 2 samples.

Results

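The data examined here cover 10 collagen genes of Caenorhabditis elegans whose mutants have an altered body shape and that lie outside the group of annular furrow collagens. They are rol-6, sqt-1, sqt-2, sqt-3, lon-3, dpy-4, dpy-5, dpy-13, dpy-14 and dpy-17, and they are 10 of the 19973 protein-coding genes of the annotation. They were chosen by name and not by a measured value, but with earlier results of these data known. All 10 names matched a gene. For each gene, every region was taken whose summit, the point of highest signal, lay between 2000 bp upstream of the 5′ end and the 3′ end. The experiment was chromatin immunoprecipitation sequencing (ChIP-seq) of the transcription factor ELT-3, in 1 group of 2 biological replicates with 1 library each. The animals were whole L3 larvae of strain OP75, male and female pooled, which all carried the unc-119(ed3) allele and the transgene wgIs75 for an eGFP-elt-3 fusion. The labels used here do not name the promoter that drives the transgene, and whole animals do not show in which cells a region was bound. There was no second condition, so the body-shape genes are set beside all protein-coding genes, and no test between conditions was possible.

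The cuticle of the worm is an extracellular matrix made mostly of collagens, which the epidermis secretes anew at each moult. Mutants of single collagen genes change the outer form of the animal: short and stout (dumpy, dpy), long (lon), rolling about the long axis (roller, rol) or squat (sqt). ELT-3 is a GATA-type transcription factor of the epidermis, and GATA factors bind short DNA words around GATA. The motif searched was AGATAA and AGATAG and TGATAA and TGATAG, on either strand, with overlapping matches all counted.

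Sequences around the summits show how the regions at these genes differ in motif content, so 6 of them are given with the GATA words in capitals. Each run is 101 bases of ce11, centred on a pooled summit and read on the strand of the gene, 5′ to 3′. A word printed as TTATCT or TTATCA is the motif on the opposite strand. The 4 runs with a word come from regions upstream of rol-6 (pooled ranks 569 and 7205), lon-3 (rank 1306) and sqt-1 (rank 2333). The 2 without a word come from regions at sqt-3 (rank 624) and sqt-2 (rank 3685). The runs are examples and not in proportion, since only 7 of the 18 pooled regions at these genes had a word. Their positions are II:8732078-8732178 on the plus strand for rol-6 at -922, II:8731054-8731154 on the plus strand for rol-6 at -1946, and V:12199802-12199902 on the minus strand for lon-3 at -1207. The others are II:11337912-11338012 on the minus strand for sqt-1 at -125, V:12353089-12353189 on the plus strand for sqt-3 at 394, and II:23072-23172 on the plus strand for sqt-2 at -203. The sequence upstream of rol-6 at -1946 holds a pair of TGATAA words with a single base between them, nearly under the summit.
rol-6 -922: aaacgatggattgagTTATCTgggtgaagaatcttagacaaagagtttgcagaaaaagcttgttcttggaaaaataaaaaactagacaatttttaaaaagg
rol-6 -1946: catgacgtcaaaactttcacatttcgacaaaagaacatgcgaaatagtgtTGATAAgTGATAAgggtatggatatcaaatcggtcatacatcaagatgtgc
lon-3 -1207: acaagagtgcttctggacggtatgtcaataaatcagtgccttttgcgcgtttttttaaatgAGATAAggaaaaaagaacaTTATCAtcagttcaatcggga
sqt-1 -125: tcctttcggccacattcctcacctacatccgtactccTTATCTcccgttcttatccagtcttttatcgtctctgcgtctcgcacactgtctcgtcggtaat
sqt-3 394: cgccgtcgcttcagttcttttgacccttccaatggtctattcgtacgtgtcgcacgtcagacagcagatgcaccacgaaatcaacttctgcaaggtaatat
sqt-2 -203: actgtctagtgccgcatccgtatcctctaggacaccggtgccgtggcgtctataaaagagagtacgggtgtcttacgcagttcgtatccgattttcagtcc

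Most body-shape collagen genes had an ELT-3 region, and several of these regions ranked high in their list. Strong and weak are used here for the rank of a region within its list and not for its significance. In the pooled list of 21761 regions, made by the authors from both replicates, 9 of the 10 genes had a region and only dpy-17 had none, against 60.4% of all genes. In the lists of 30000 regions each, 9 of 10 genes had a region in replicate 1, all but dpy-17, against 71.7% of all genes, and 8 of 10 in replicate 2, all but dpy-13 and dpy-14, against 72.5%. These lists hold background regions together with peaks, so most genes have something. The body-shape genes stood further from the other genes when only strong regions counted: 7 of 10 had one of the 5000 strongest pooled regions, against 19.6% of genes, and 3 of 10 (dpy-5, rol-6 and sqt-3) had one of the 1000 strongest, against 4.50%. No body-shape gene had a region of the list that passed the authors' irreproducible discovery rate (IDR) threshold, against 1.36% of genes. That list is exactly the 280 strongest pooled regions, and the strongest region at a body-shape gene, at dpy-5, was of pooled rank 496.

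By the authors' own q-values few of these regions were significant, and none in the pooled list. At a q of 0.05, a threshold added after the values had been seen, 0 of the 10 genes had a pooled region in the window, against 1.79% of all genes. The best were at dpy-5 (rank 496, −log10 q of 1.04), rol-6 (rank 569, 0.894) and sqt-3 (rank 624, 0.824), and the region of rank 2333 at sqt-1 had 0.219. In the whole pooled list only 381 of 21761 regions (1.75%) passed. In replicate 1, 4 of the 10 genes (dpy-13, lon-3, rol-6 and sqt-1) had a region that passed, against 5.64% of all genes, and the highest −log10 q was 1.99 at rol-6. In replicate 2 only dpy-5 had one, with 1.38, against 0.631% of all genes. The regions described for single genes below are therefore mostly ones that do not pass this threshold.

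The windows of these genes are not long ones. Their median was 3.18 kb, against 4.03 kb over all genes. The 10 genes held 18 pooled regions, a median of 0.493 per kb against 0.195 per kb for all genes. In replicate 1 the medians were 0.813 per kb at the body-shape genes and 0.274 per kb at all genes, and in replicate 2 they were 0.491 and 0.280 per kb. Among the body-shape genes the pooled density ran from 0 at dpy-17 to 1.25 per kb at rol-6.

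**Figure D1:**
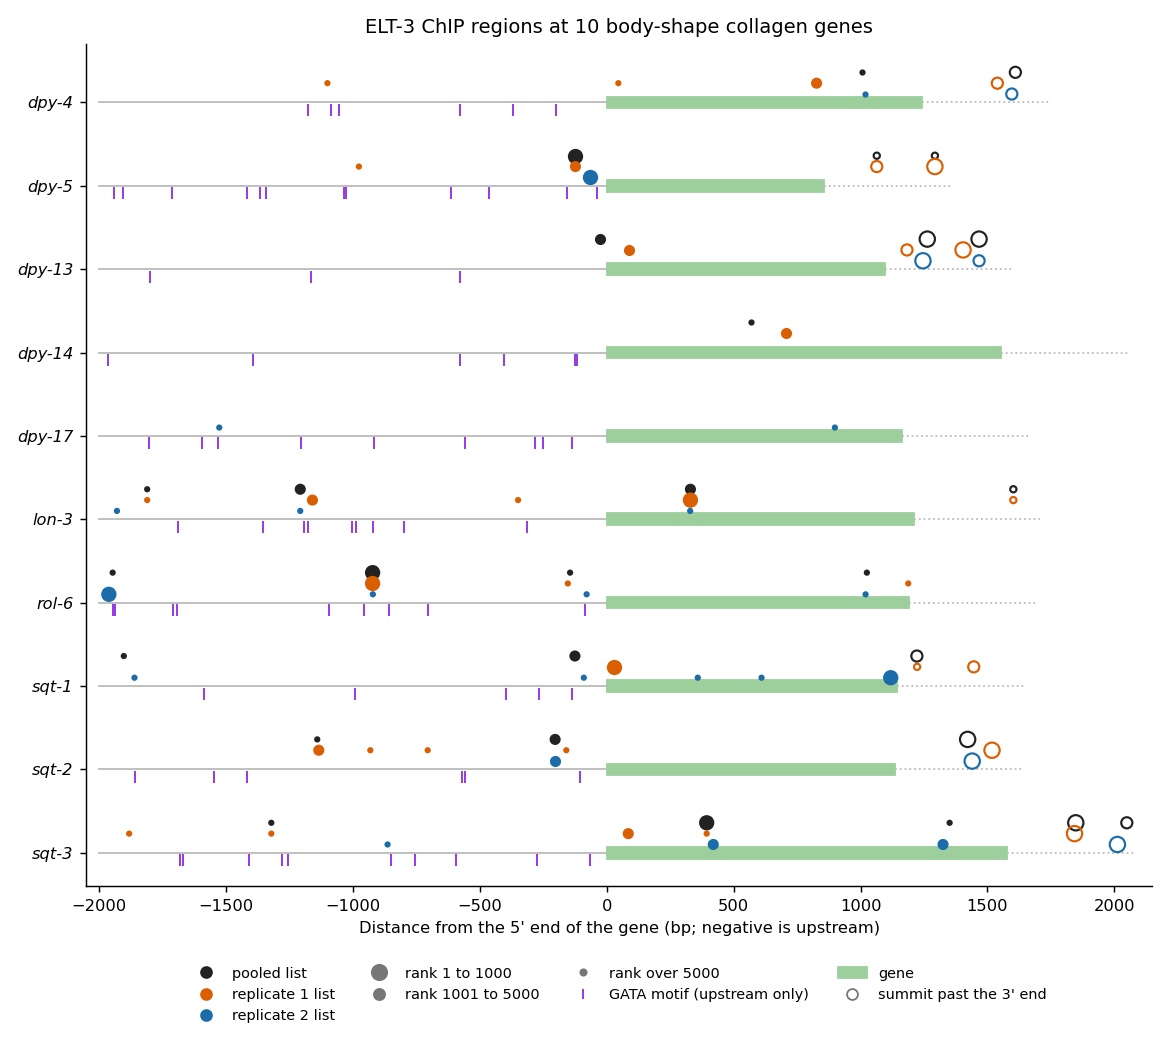
Summits of ELT-3 regions at the 10 genes, by distance from the 5′ end in bp; colours mark the list, point size the rank within the list, green bars the genes and purple ticks the GATA motif upstream. Open circles lie in the 500 bp past the 3′ end, outside the window; large filled points (rank 1 to 1000) include those close upstream at dpy-5, far upstream at rol-6 and inside sqt-3, and dpy-17 has no black point.

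rol-6 (WBGene00004397, T01B7.7, chromosome II from 8733050 to 8734239, plus strand) encodes the collagen whose dominant allele is the common roller marker for transgenic worms. It was the gene with the most even rank over the lists: its strongest region had rank 569 in the pooled list, 629 in replicate 1 and 593 in replicate 2. Only 2.68% of all genes had a pooled region as strong or stronger, 2.91% in replicate 1 and 2.87% in replicate 2. The even ranks did not come from 1 place, however. The pooled and replicate 1 regions lay at -922 bp (8731950 to 8732305, signal 38.3 in the pooled list), where replicate 2 had only rank 6369. The strongest replicate 2 region lay at -1961 bp, over the paired TGATAA words printed above, where the pooled list had rank 7205 and replicate 1 had no region. Weaker pooled regions at rol-6 had their summits at -144 bp (rank 11706) and at 1025 bp in an intron (rank 13174). All 3 upstream regions were intergenic, since the next gene upstream, T01B7.9, is 6249 bp away.

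sqt-1 (WBGene00005016, B0491.2, chromosome II from 11336693 to 11337837, minus strand) encodes a cuticle collagen that interacts genetically with rol-6. Its strongest pooled region had rank 2333 and signal 27.2, with the summit at -125 bp and an AGATAA word 11 bp from it. The replicates placed their strong regions elsewhere. Replicate 1 had rank 829 at 29 bp inside the gene, overlapping the pooled region, and replicate 2 had only rank 24779 close to that place, at -90 bp. Replicate 2 instead had rank 301 at 1119 bp, in the 3′ UTR, overlapping a pooled region of rank 1402 whose summit lay 78 bp past the 3′ end and so outside the window. A pooled region of rank 8722 at -1902 bp was nearer to the 5′ end of rmd-3 than to that of sqt-1.

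sqt-2 (WBGene00005017, C01B12.1, chromosome II from 23325 to 24458, plus strand) is named for squat and roller mutants. Its stronger pooled region lay at -203 bp (rank 3685, signal 24.6) and was found at the same base in replicate 2 at rank 2139, while the nearest replicate 1 summit, at -159 bp, had rank 14025. No GATA word lay within 50 bp of that summit, as the printed sequence shows. The summit also falls within the window of enee-1, the next gene downstream. A weaker pooled region at -1140 bp (rank 12273) had a match in replicate 1 at rank 2879 and none in replicate 2.

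sqt-3 (WBGene00005018, F23H12.4, chromosome V from 12352745 to 12354320, plus strand) encodes an essential cuticle collagen whose C-terminal processing depends on the protease DPY-31. Its strongest pooled region was inside the gene, in a coding exon 394 bp from the 5′ end (12352961 to 12353316, rank 624, signal 37.1), with ranks of 8208 in replicate 1 and 2664 in replicate 2. The strongest replicate 1 region at sqt-3, of rank 3653, lay at 85 bp in the 5′ UTR and overlapped it. No GATA word lay within 50 bp of this summit. Its intergenic promoter had 10 GATA words and only weak regions: the strongest upstream ranks were 18527 in the pooled list, 8864 in replicate 1 and 22170 in replicate 2. A pooled region in the 3′ UTR (rank 10115) had a match in replicate 2 alone, at rank 4885.

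lon-3 (WBGene00003057, ZK836.1, chromosome V from 12197437 to 12198645, minus strand) encodes a collagen whose loss makes the worm long and whose excess makes it dumpy. The gene lies inside ogdh-2, an oxoglutarate dehydrogenase gene on the opposite strand, so its regions cannot be assigned to it alone. It had 2 pooled regions of similar strength, at 330 bp in its coding exon (rank 1164, signal 31.7) and at -1207 bp in an intron of ogdh-2 (rank 1306, signal 30.9). The upstream one held an AGATAA and a TGATAA word within 50 bp of the summit and the other held none. Both were strong in replicate 1, with ranks 995 and 1031, and weak in replicate 2, with ranks 29017 and 14541. Replicate 1 ranked lon-3 among the strongest 4.59% of genes, and replicate 2 among 47.6%. The remaining pooled region, at -1810 bp, was weak, at rank 18886.

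dpy-5 (WBGene00001067, F27C1.8, chromosome I from 5432197 to 5433051, minus strand) encodes a procollagen whose loss gives short, stout worms. It had the strongest region of the 10 genes, at -123 bp in the window (5432996 to 5433351, pooled rank 496, signal 39.9), with an AGATAA word within 50 bp of the summit. Replicate 2 had rank 133 there, at -64 bp, and replicate 1 had rank 3197 at the same base as the pooled summit. Regions as strong were found at 2.36% of genes in the pooled list, 13.3% in replicate 1 and 0.646% in replicate 2. The summit lies between genes and also within the window of F27C1.1, at -1631 bp from its 5′ end.

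dpy-13 (WBGene00001074, F30B5.1, chromosome IV from 4235614 to 4236710, plus strand) is another dumpy collagen gene. Its pooled region had its summit at -25 bp (rank 1680, signal 29.1), in the gap of 248 bp that separates it from zipt-2.2, a zinc transporter gene, at -224 bp from the 5′ end of that gene. Replicate 1 had rank 1122 at 88 bp inside the gene, overlapping the pooled region, and replicate 2 had no region in the window. No word of the 4-word motif lay within 50 bp of the pooled summit, although the related word GATAAG did. A pair of stronger pooled regions lay past its 3′ end and are given below.

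dpy-4 (WBGene00001066, Y41E3.2, chromosome IV from 14985543 to 14986784, minus strand) lies inside atln-2, an atlastin gene on the opposite strand. Its pooled region was weak and internal, in a coding exon 1006 bp from the 5′ end (rank 6014, signal 22). Replicate 2 had rank 16859 there, and replicate 1 had rank 4619 at 827 bp. Replicate 1 alone had further regions at 46 bp (rank 5401) and at -1100 bp (rank 5242), the second near a pair of TGATAA words in an intron of atln-2.

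dpy-14 (WBGene00001075, H27M09.4, chromosome I from 6843589 to 6845142, plus strand) had 1 pooled region, in a coding exon 568 bp from the 5′ end with a TGATAA word near the summit (rank 7939, signal 20.6). Replicate 1 had rank 1888 at 705 bp, overlapping it, and replicate 2 had no region in the window. No list had a region upstream of dpy-14. Its promoter held 6 GATA words, the nearest of them a pair that share 1 base at -125 and -120 bp, in the 245 bp between dpy-14 and dpf-3. The GATAAG word occurred 3 times within 500 bp upstream, the most of the 10 genes.

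The lists were not in step with each other gene by gene, as the plot of strongest ranks shows. A region in all 3 lists was present at 7 of 10 genes (all but dpy-13, dpy-14 and dpy-17), against 47.4% of all genes. When a single pooled summit had to have a summit within 100 bp in each replicate, the count was 5 of 10 (dpy-5, lon-3, rol-6, sqt-2 and sqt-3), against 22.8% of genes. Of the 18 pooled regions, 7 (38.9%) were matched in both replicates, against 25.1% of all pooled regions, and 2 (11.1%) in neither, against 9.87%. The pooled list was made from the replicates, so part of such a match is built in. Taken from one replicate to the other, 7 of 23 regions of replicate 1 (30.4%) were matched in replicate 2, against 18% of its whole list.

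**Figure D2:**
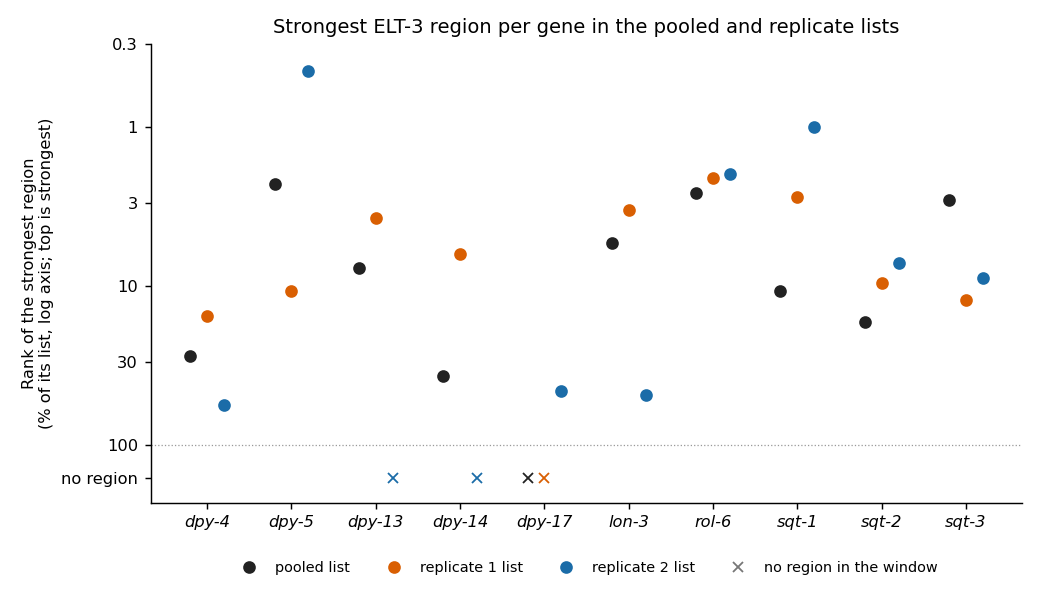
Rank of the strongest region at each gene as a percentage of its list, on a log axis with the strongest at the top, for the pooled, replicate 1 and replicate 2 lists; crosses mark lists with no region in the window. The 3 points of rol-6 lie together near 2% while those of lon-3 spread from 3.32% in replicate 1 to 48.5% in replicate 2.

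The body-shape genes more often had a high-ranking region than the numbered col genes, though not than every list of cuticle genes. Among those with a pooled region, the median strongest rank was 1680 for body-shape genes, against 8343 for all genes. A list of 156 numbered col genes, most of them cuticle collagens too, had a pooled region at 100 (64.1%), one of the 5000 strongest at 39 (25%) and one of the 1000 strongest at 5 (3.21%), the strongest being col-62 with rank 87 at -489 bp. Their median window was 3.22 kb, against 3.18 kb for the body-shape genes. The 6 annular furrow collagen genes, whose mutants are dumpy as well, all had a pooled region, and 3 (50%) had one of the 5000 strongest. Among them dpy-9 had rank 648 at -90 bp, dpy-2 and dpy-10 shared a region of rank 1396, and dpy-8, dpy-7 and dpy-3 had only weak regions of ranks 10620, 14377 and 16417. With 10 and 6 genes, these counts describe the lists and no difference between them was tested. Of 12 genes for enzymes that process or cross-link collagen, 11 had a pooled region, 9 (75%) one of the 5000 strongest and 3 one of the 1000 strongest, in windows with a median of 6.56 kb. The strongest was at dpy-31, the protease gene named above for sqt-3, with rank 140 at -645 bp. Of 3 blister collagen genes all had a pooled region, the strongest at bli-2 with rank 3462 at 870 bp. Among markers of other tissues, 6 of 10 intestine genes and 9 of 10 body wall muscle genes had a pooled region. The share over all genes was 60.4%. The median windows of these markers were 5.32 and 8.59 kb. None of them had one of the 1000 strongest, against 4.50% of all genes. One of the 5000 strongest was present at 3 of the intestine genes and at 7 of the muscle genes, against 19.6% of all genes. The body-shape genes had the same count of 7 in windows of 3.18 kb. The strongest of these regions were at vit-2 (rank 1218) and mlc-1 (rank 2783).

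**Figure D3:**
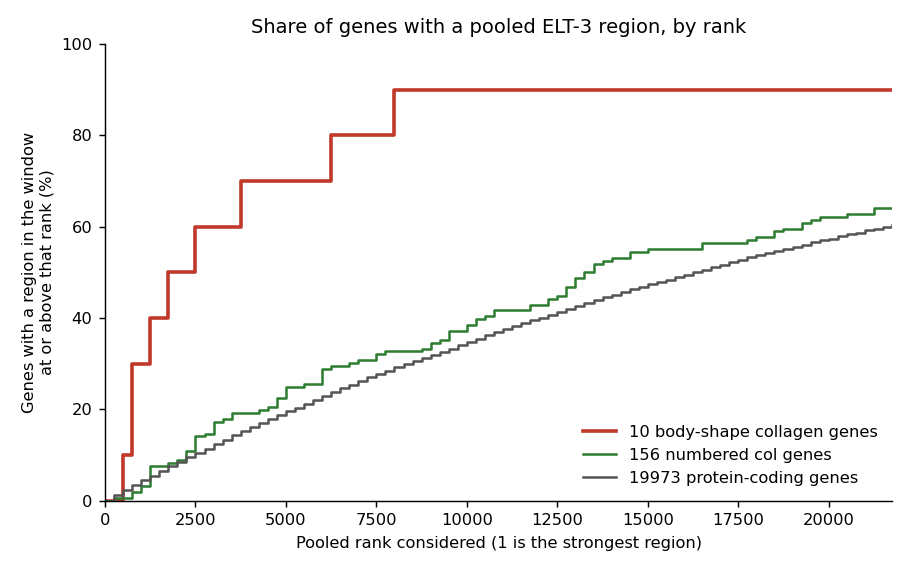
Percentage of genes with a pooled region in the window at or above a given pooled rank, in steps of 250 ranks, for the 10 body-shape collagen genes, 156 numbered col genes and all 19973 protein-coding genes. The red line is at 70% by rank 5000, where the numbered col genes are at 25% and all genes at 19.6%.

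Upstream regions were found at 7 of 10 body-shape genes (all but dpy-4, dpy-14 and dpy-17), against 37.8% of all genes. Of the 18 pooled summits, 10 (55.6%) were intergenic, against 39.8% of all pooled summits, 4 (22.2%) in coding exons, against 20%, and 3 (16.7%) in introns, against 33.7%. The 18 came only from windows of 2000 bp upstream to the 3′ end, and all pooled summits from the whole genome. These shares are therefore not over like stretches. Within 50 bp of the summit, G and C made up a median of 37.6% of bases, against 33.7% over all pooled regions. Except for the region near rmd-3, each pooled summit had its body-shape gene as the gene with the nearest 5′ end. The window is set around that 5′ end, so this is partly built in, and no share over all genes is given. It does not assign the regions at dpy-4 and lon-3, which lie inside other genes.

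A GATA word lay within 50 bp of the summit in 7 of the 18 regions (38.9%), against 23.9% of all pooled regions. In windows of the same size 500 bp to the left and right, the body-shape regions had 16.7% and 22.2%, and all pooled regions had 20.7% and 20.5%. The 7 were at dpy-5, dpy-14, lon-3 (-1207 bp), rol-6 (-1946 and -922 bp), sqt-1 (-125 bp) and sqt-3 (-1321 bp). The 11 without a word include the strongest regions of sqt-3, lon-3 and sqt-2. Of the 18 regions, 5 (27.8%) had the word GATAAG on either strand, which overlaps the motif, against 5.24% of all pooled regions: dpy-5, dpy-13, lon-3 (-1207 bp), rol-6 (-1946 bp) and sqt-1 (-125 bp). All 5 lay upstream of their genes. These counts rest on few regions, and a match to a word does not show that ELT-3 bound there.

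GATA words were also present where no region was. In the 2000 bp upstream, the body-shape genes had a median of 7.50 words, from 3 at dpy-13 to 12 at dpy-5, against a median of 5 over all promoters, of which 98.4% had at least 1 word. At least as many words as at dpy-5 were found in 1.76% of promoters, at least as many as at sqt-3 in 5.99%, and at least as many as at dpy-17, lon-3 or rol-6 in 10.4%. The other promoters were less rich in words. This share was 39.9% for dpy-4, dpy-14 and sqt-2, 54.8% for sqt-1 and 83.4% for dpy-13. Many of these words lie in neighbouring or host genes. Only 4 of the 12 at dpy-5, 3 of the 9 at dpy-17 and 0 of the 9 at lon-3 were intergenic. All 9 at rol-6 and all 10 at sqt-3 were. The word GATAAG occurred within 500 bp upstream of 7 of the 10 genes, all but lon-3, rol-6 and dpy-17, against 22.7% of all genes. Within 2000 bp it occurred at all 10, against 56.4%. The promoters of the body-shape genes had a median GC content of 35.4%, against 34.9% over all promoters.

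**Figure D4:**
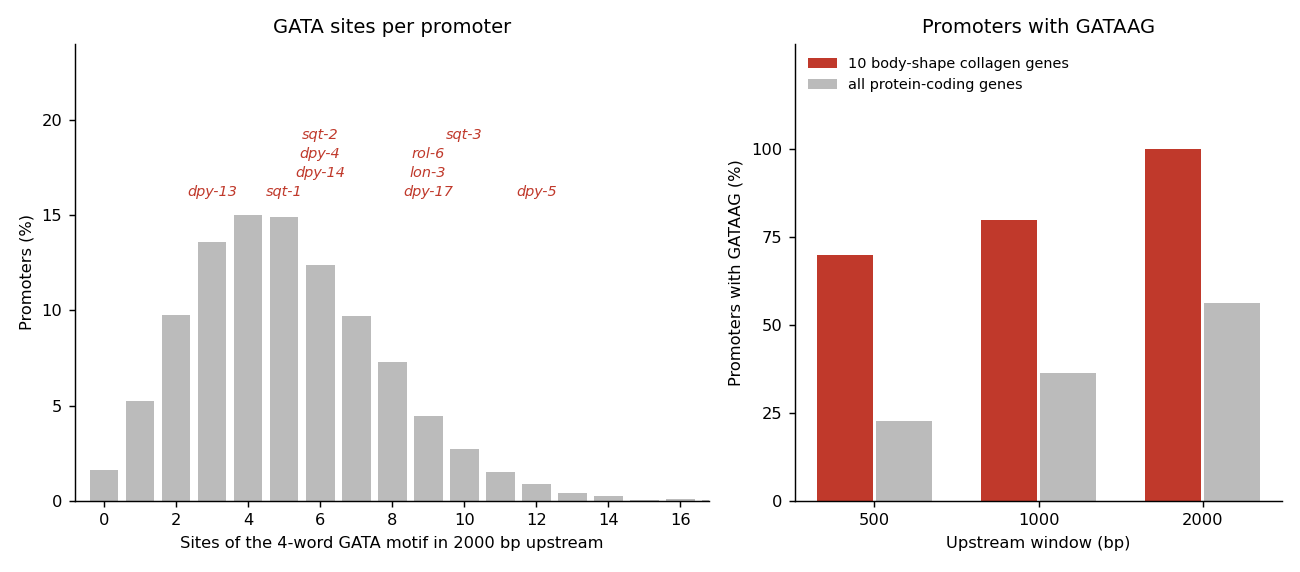
Left, percentage of all promoters by number of GATA words in 2000 bp upstream, with the 10 genes named above the column of their own number (promoters with more than 16 words are not drawn). Right, percentage of promoters with the word GATAAG within 500, 1000 and 2000 bp upstream, for the 10 body-shape collagen genes beside all protein-coding genes; at 500 bp the values are 70% and 22.7%.

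dpy-17 (WBGene00001076, F54D8.1, chromosome III from 5107330 to 5108492, plus strand), a dumpy collagen gene that interacts genetically with sqt-3 and dpy-31, was the gene without a pooled region. It had no region in replicate 1 either. Replicate 2 had weak ones at -1526 bp (rank 13607), in a coding exon of the neighbour F54D8.6 and 5 bp from a TGATAA word, and at 899 bp (rank 14066). Its promoter nonetheless held 9 GATA words, of which 6 lie in F54D8.6 and 3 in the 309 bp between the genes. The 3 intergenic words and the word at the replicate 2 summit are given with 12 bases on each side, on the plus strand of ce11. Beside them stands the word nearest to dpy-4, whose 6 upstream words all lie in an intron of atln-2, on the strand of dpy-4. These are sites with the motif and no pooled region. The positions are III:5107032-5107061, III:5107067-5107096, III:5107180-5107209, III:5105785-5105814 and IV:14986969-14986998.
dpy-17 -286: tcatcatatcggAGATAAcggacaattatg
dpy-17 -251: tattcgagatgaTTATCAtatcggtcatat
dpy-17 -138: aaatggacacttTTATCAaaacattttcca
dpy-17 -1533: ggatcgaatgggTGATAAgcaaagaagagg
dpy-4 -202: attgtttcacggAGATAAgaaacttttgcg

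Some of the strongest regions near these genes lay just past their 3′ ends, outside the window that chose the regions above. This interval of 500 bp was set after these values had been seen. A pooled summit lay there at 7 of the 10 genes (dpy-4, dpy-5, dpy-13, lon-3, sqt-1, sqt-2 and sqt-3), against 13.8% of all genes, and one of the 1000 strongest at 3 (dpy-13, sqt-2 and sqt-3), against 0.801%. In replicate 1 the count was 7 of 10, against 18.6% of all genes, and in replicate 2 it was 4 of 10, against 16.7%. The numbered col genes had a pooled summit there in 39 of 156 cases (25%) and the furrow collagens in 2 of 6. In replicate 1 these counts were 50 of 156 (32.1%) and 4 of 6 (66.7%), the second close to that of the body-shape genes. In replicate 2 they were 50 of 156 (32.1%) and 1 of 6 (16.7%). One of the 1000 strongest pooled regions lay there at 2 of the 156 and 1 of the 6.

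The region past sqt-3 was the strongest near any of the 10 genes, the only one in the IDR list and the only pooled one of these to pass a q of 0.05 (−log10 q of 2.07). The replicates differed here. In replicate 1 a region past the 3′ end passed at 5 of the 10 genes (dpy-5, dpy-13, sqt-1, sqt-2 and sqt-3), and in replicate 2 at 0. No share over all genes is given for these counts. The pooled summit past sqt-3 lay 273 bp past the 3′ end, between genes (chromosome V, 12354415 to 12354770, pooled rank 175, signal 53.2), with rank 276 in replicate 1. Replicate 2 had rank 329 at 437 bp past the end, close to another pooled summit of rank 1070 at 474 bp. That summit had GATA words within 50 bp, and no other pooled summit in the 500 bp past the 3′ ends of the 10 genes did. At dpy-13 the pooled ranks were 516 at 167 bp and 589 at 371 bp past the end, and all lists had regions there, with best ranks of 818 in replicate 1 and 373 in replicate 2. At sqt-2 the pooled rank was 481 at 289 bp past the end, with 680 in replicate 1 and 318 in replicate 2. That summit lies in the 5′ UTR of enee-1, 81 bp from its 5′ end. At dpy-4 the pooled rank was 1111 at 369 bp past the end, in an intron of atln-2, with 3039 in replicate 1 and 1012 in replicate 2. So at dpy-4, dpy-13, sqt-1, sqt-2 and sqt-3 the strongest pooled region past the 3′ end ranked above every pooled region in the window. At sqt-1 neither replicate had this order. Replicate 1 had rank 1130 past the end and 829 in the window. Replicate 2 had rank 301 in the window and no summit past the end.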

How the data were processed

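ELT-3 ChIP-seq regions of 2 replicates were analysed on the ce11 build. Each region's signal is a value the authors deposited, with a scaling that they do not state, and it served only to rank regions within a list. The −log10 q-value is also as deposited by the authors and was not used for ranking, only to count regions that pass a q of 0.05. The deposit's README says that alignments of 1 replicate and a control gave each replicate list, alignments of both gave the pooled list, and these 3 lists gave the IDR list. The sources used here do not give the aligner, peak caller, IDR threshold or read depth. The control was not used here.

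Regions, 356 bp wide, were placed by their summits on Ensembl release 115 gene models of WBcel235, the assembly of ce11. Sequences are from the RefSeq copy of that assembly, and none is printed for dpy-5, dpy-13 or dpy-14. Replicate summits within 100 bp of a pooled summit counted as matched. Python 3.11.15, pandas 2.3.3, numpy 2.4.6 and matplotlib 3.10.9 were used, and the counting was tested on simulated regions. Genes and regions are not replicates, so shares over all genes stand in place of tests, and neighbouring genes can share a summit. Genes named are the 10, any gene sharing their strongest pooled summit, and the leading gene of each comparison list with all furrow collagens. Their neighbours and host genes are named for position only. The genes and lists were chosen with earlier results of these data known. Alternatives covered the list, window, overlap, match distance and motif.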

Additional observations from a re-analysis of the deposited data

How the results depend on the processing

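The 9 genes with a region became 7 among the 5000 strongest pooled regions, 3 among the 1000 strongest and 0 in the IDR list. They became 0 at a q of 0.05 (added after seeing the data) and 5 in a window from 1000 bp upstream to 200 bp downstream. No share over all genes is given for that narrower window, so its count of 5 cannot be set beside one. Leaving out replicate 2 or 1 gave 9 and 8 genes. The median strongest rank, 7.72% of the list, was 6.29% and 8.01% without a replicate and 5.35% when any overlap with the window counted. Regions found in both replicates, 7 at 100 bp, were 11 both within 200 bp and by any overlap. No share over all pooled regions is given for these wider settings, so the count of 11 cannot be set beside one. The share with a GATA word at the summit, 38.9%, was 22.2% within 25 bp (12.8% over all pooled regions), 50% within 100 bp (41.0%), 27.8% for GATAAG (5.24%), 22.2% for TGATAA (11.5%), and 34.8% to 40.0% without a replicate. Words per kb of promoter, 3.75, were 1.25 for GATAAG and 1.75 for TGATAA. Region density, 0.493 per kb, was 0.491 to 0.813 without a replicate. Of 177 genes in the 4 other cuticle lists, 120 had a pooled region and 52 one of the 5000 strongest. The shares over all genes were 60.4% and 19.6%. The RefSeq 5′ ends, and counting each region for its nearest gene alone, both chosen after seeing the data, left 9 genes with a region. The 500 bp past the 3′ end, also chosen after seeing the data, gave 7. No paired analysis was possible because there is 1 group and no comparison between conditions. Read depth is unknown and no pooled region in the windows passes a q of 0.05, so these regions cannot be told from background one by one, and a missing region does not show missing binding. With 2 replicates, ranks that differ between them have no further check.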
